A study of Mus musculus with 6 samples.

Results

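Complex IV of the respiratory chain is built partly from subunits that exist in more than one tissue form, and the 10 genes described here are Cox6a1, Cox6a2, Cox6b1, Cox6b2, Cox7a1, Cox7a2, Cox7a2l, Cox7b, Cox8a and Cox5a. They were found by symbol among the 54532 genes of the count file, and all 10 had a row. They were chosen on the diet contrast itself, because one complex IV gene was seen to be higher and the others lower on a high fat diet. Their difference between the diets is therefore given as a description, with no test. The counts bear that choice out only in part, since 3 of the 10 and not 1 had a positive fold change.

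RNA was sequenced from the epididymal fat pad, a visceral depot, of male C57BL/6J mice. The ND group received a normal diet with 4.5% fat and the HFD group a diet with 60% fat. Feeding started when the mice were 4 weeks old and went on for 16 weeks, all mice were untreated, and each diet gave 3 libraries. The whole fat pad was used, so adipocytes, immune cells, vessels and stroma are mixed in each library. In such tissue fewer cells of a type and less RNA per cell cannot be told apart. The labels do not say whether a library came from 1 mouse, so p-values measure the spread between these samples, which may be partly technical.

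Complex IV, or cytochrome c oxidase, takes electrons from cytochrome c, passes them to oxygen and pumps protons across the inner mitochondrial membrane. Its catalytic core is encoded by the mitochondrial genome (mt-Co1, mt-Co2 and mt-Co3), and a ring of small nuclear-encoded subunits surrounds the core. Several of these come as pairs. Cox6a1, Cox7a2 and Cox8a are the forms found in most tissues, whereas Cox6a2, Cox7a1 and Cox8b are the forms of heart and skeletal muscle, the last 2 also of brown fat, and Cox6b2 is the testis form of Cox6b1. White fat is known for few mitochondria per cell and brown fat for many.

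The 2 members of an isoform pair are separate genes, and their coding sequences were compared first because a read can only be assigned where they differ. The coding sequence of Cox7a1 (chr7:30184144-30186078, GRCm38, plus strand) was identical to that of Cox7a2 (chr9:79755361-79759878, minus strand) at 157 of 233 aligned bases, or 67.4%. The stretches below run 5′ to 3′ in the direction of transcription, from base 78 to 189 of the Cox7a1 coding sequence and from 84 to 195 of the Cox7a2 coding sequence, and capitals mark the longest run of bases that both share, 12 bases.
Cox7a1: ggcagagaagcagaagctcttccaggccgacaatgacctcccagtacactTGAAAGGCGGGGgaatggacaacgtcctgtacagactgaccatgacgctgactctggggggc
Cox7a2: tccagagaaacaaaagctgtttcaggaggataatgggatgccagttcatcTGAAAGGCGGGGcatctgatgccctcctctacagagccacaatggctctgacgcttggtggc

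Cox6a2 (chr7:128205435-128206387, minus strand) was identical to Cox6a1 (chr5:115345642-115348981, minus strand) at 193 of 290 aligned coding bases, or 66.6%. Bases 155 to 266 of the Cox6a2 coding sequence and 200 to 311 of the Cox6a1 coding sequence are shown, again with the longest shared run, 12 bases, in capitals.
Cox6a2: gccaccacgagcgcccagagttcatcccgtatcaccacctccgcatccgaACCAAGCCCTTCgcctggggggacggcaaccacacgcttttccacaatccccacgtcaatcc
Cox6a1: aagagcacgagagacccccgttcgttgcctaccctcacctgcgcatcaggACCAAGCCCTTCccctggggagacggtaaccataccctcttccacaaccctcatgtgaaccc

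Cox6b2 and Cox6b1 were identical at 66.3% of aligned coding bases with a longest shared run of 14 bases. Cox7a2l, a relative of the Cox7a pair, was identical to Cox7a2 at 70.6% with a run of 11 bases and to Cox7a1 at 64.4% with a run of 9 bases. No isoform shared a stretch of 50 bases with its partner. Some members shared such stretches with other genes, however, when each 50-base window of their transcripts was looked for in all annotated transcripts. The share of windows found elsewhere was 13.8% for Cox7a2l, all in the pseudogene Gm6969, which had 24 to 46 counts per library. It was 9.16% for Cox6a1, 9.11% for Cox5a, 3.33% for Cox6a2, where the other gene was Itgad, and 0.516% for Cox7b, and it was 0 for Cox6b1, Cox6b2, Cox7a1, Cox7a2 and Cox8a. The values of the first 5 genes are uncertain to that extent, because reads from such windows can be split or dropped in counting. Most of the Cox5a windows, 174 of 191, were shared with the antisense RNA Gm26631, whose exons overlap those of Cox5a by 269 bases and which had 4 to 14 counts per library.

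The libraries held 16996896 to 18859320 counts. At the floor of 3 counts used here, a gene stands at 0.150 to 0.181 CPM, that is, the count scaled to a common library size after TMM scaling. Pearson's r of log2 CPM across genes, which are not independent replicates, ranged from 0.966 to 0.982 within ND, from 0.953 to 0.980 within HFD and from 0.884 to 0.953 across diets. ND3 stood apart in its epithelial markers. Its summed CPM of 8 markers of epithelium and motile cilia was 299, against 21.4 to 31.1 in the other 5 libraries. Values without ND3 are given below for some results, namely Cox6b2, Cox6a2 and the counts of genes and subunits called, and not for every gene. For the tissue check, the 15 adipocyte markers summed to 48916 to 64945 CPM on ND against 23398 to 46286 CPM on HFD.

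The level of each gene was compared per length of transcript, in FPKM as deposited. On ND the order ran from Cox8a (1146 ± 161 FPKM, SD, n = 3) through Cox6a1 (771 ± 119), Cox6b1 (326 ± 39.8), Cox7a2 (159 ± 25.7), Cox7a2l (130 ± 5.40), Cox7b (128 ± 18.6) and Cox5a (42.8 ± 10.1) to Cox7a1 (6.82 ± 1.71), Cox6b2 (2.92 ± 0.927) and Cox6a2 (0.137 ± 0.0547). The ranges of neighbours in this order did not overlap, except those of Cox7a2l and Cox7b. The 3 isoforms that belong to muscle, brown fat or testis thus stood last. On HFD the order was Cox8a (817 ± 187 FPKM), Cox6a1 (550 ± 91.5), Cox6b1 (276 ± 19.1), Cox7a2l (144 ± 13.8), Cox7a2 (121 ± 15.8), Cox7b (96.1 ± 9.09), Cox5a (30.4 ± 3.08), Cox7a1 (10.05 ± 1.13), Cox6b2 (2.45 ± 1.33) and Cox6a2 (2.08 ± 1.31). Cox7a2l stood before Cox7a2 on HFD and after it on ND. On HFD the ranges of Cox8a and Cox6a1, of Cox7a2l and Cox7a2, and of Cox6b2 and Cox6a2 overlapped, so the order within those pairs is not settled by 3 libraries. Subunits of 1 complex are present in equal numbers in the finished enzyme, whereas the transcript levels of the forms found in most tissues spanned the range from 42.8 to 1146 FPKM on ND.

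Across the 15751 genes with enough counts to be tested, edgeR's quasi-likelihood test called 15.9% at an adjusted p under 0.05, 9.85% higher and 6.04% lower on HFD. Without ND3 it called 607 genes higher and 396 lower, in place of 1552 and 952. All 10 isoform genes had enough counts, Cox6a2 only through its HFD libraries. Of the 10, 1 was called higher (Cox6a2) and 0 were called lower, and since this contrast chose the genes nothing is read from that count. At an unadjusted p under 0.05 the counts were 1 higher and 4 lower, and the share over all genes was not computed. DESeq2 called 1 higher and 0 lower, beside 2033 higher and 1596 lower over all genes. Nothing is read from these counts either, for the same reason. The log2 fold change (HFD over ND) was negative in 7 genes and positive in 3, with a median of -0.31, against 0.01 over all genes tested. The CPM values of the diets did not overlap in 8 of the 10, beside 40.9% of all genes tested, and overlapped in Cox7a2l and Cox6b2.

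**Figure D1:**
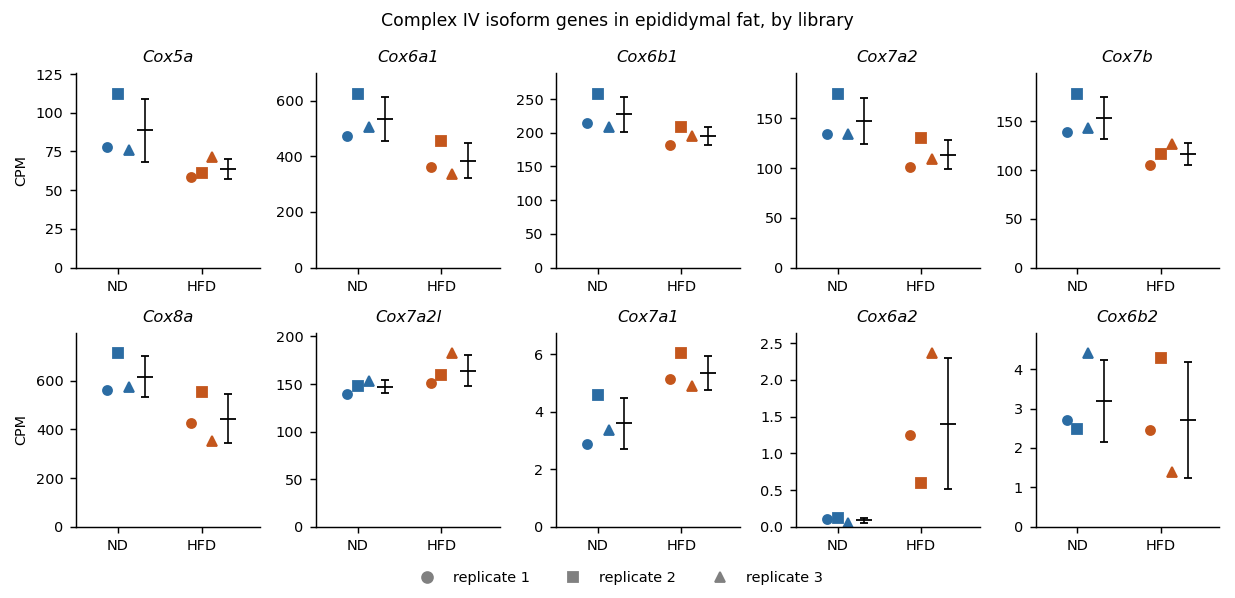
CPM of the 10 genes in each library (y axis, linear from 0, scaled per gene), with ND in blue and HFD in orange. Marker shapes give replicates 1 to 3 (the labels state no pairing for a number shared across diets), and bars give the mean ± SD of 3 libraries. The 6 genes from Cox5a to Cox8a lie lower in every HFD library than in every ND library, Cox7a1 and Cox6a2 lie higher, and Cox7a2l and Cox6b2 overlap.

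The mean CPM of the 6 subunits found in most tissues, Cox6a1, Cox8a, Cox5a, Cox7b, Cox7a2 and Cox6b1, lay on HFD at 71.9 to 85.8% of the ND mean. Cox6a1, the general form of a subunit at the contact between the monomers of the enzyme dimer, had 472, 624 and 505 CPM in ND1, ND2 and ND3 and 360, 456 and 337 CPM in HFD1, HFD2 and HFD3. The HFD mean was 72.1% of the ND mean, which is -0.47 ± 0.19 (standard error) as a log2 fold change. The highest HFD library, HFD2, lay just under the lowest ND library, ND1. Cox8a, the smallest nuclear-encoded subunit, had 561, 712 and 574 CPM on ND against 425, 551 and 353 CPM on HFD, a log2 fold change of -0.47 ± 0.21. Here too HFD2 lay close under ND1, and the HFD libraries were spread more widely (CV 22.7%) than the ND libraries (CV 13.6%).

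Cox5a, a subunit on the matrix side of the enzyme, had 77.9, 112 and 75.8 CPM on ND against 58.6, 61.4 and 71.1 CPM on HFD, a log2 fold change of -0.48 ± 0.18. ND2 stood well above the other ND libraries, and the highest HFD library, HFD3, lay just under the lowest ND library, ND3. Cox7b, a subunit with a single membrane span, had 139, 178 and 143 CPM on ND against 105, 117 and 127 CPM on HFD, a log2 fold change of -0.40 ± 0.15. Cox7a2, the general form of the subunit at the face where complex IV meets complex III, had 134, 174 and 134 CPM on ND against 101, 130 and 109 CPM on HFD, a log2 fold change of -0.38 ± 0.16. In both genes every HFD library lay below every ND library, with HFD2 of Cox7a2 near the ND range.

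Cox6b1, the intermembrane space subunit next to the site where cytochrome c binds, had the smallest difference of the 6. Its values were 215, 257 and 209 CPM on ND against 182, 208 and 195 CPM on HFD, a log2 fold change of -0.22 ± 0.14. HFD2 and ND3 were nearly equal. ND2 was the highest ND library in 8 of the 10 genes, and the highest HFD library was HFD2 in 6 genes and HFD3 in 4.

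Cox7a2l, which is also called SCAF1 and joins complex III to complex IV in supercomplexes, did not share the direction of these 6 genes. It had 140, 148 and 154 CPM on ND against 151, 159 and 182 CPM on HFD, a log2 fold change of 0.16 ± 0.13. The diets overlapped, and the HFD mean was 112% of the ND mean. The coding sequence annotated in the C57BL/6J reference has 336 bases with its stop codon, and the C57BL/6 strains are known for carrying a shortened form of the protein. The pseudogene Gm6969 was listed at 24, 34 and 46 counts on ND and 40, 43 and 36 counts on HFD, against 2556 to 3163 counts for Cox7a2l.

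Cox7a1, the heart, skeletal muscle and brown fat form, was low in both diets but stood higher in every HFD library. It had 2.86, 4.58 and 3.35 CPM on ND against 5.14, 6.02 and 4.90 CPM on HFD, a log2 fold change of 0.57 ± 0.27. The counts behind these values were 53, 79 and 67 on ND and 94, 100 and 85 on HFD. The ratio of the summed counts per unit of library size was 1.496, given as a description with no test. Leaving out 1 library at a time gave log2 fold changes of 0.43 to 0.79.

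Cox6b2, the testis form, did not separate the diets. It had 2.70, 2.49 and 4.40 CPM on ND against 2.46, 4.28 and 1.38 CPM on HFD, from 50, 43 and 88 counts and 45, 71 and 24 counts. Its highest and lowest values lay in ND3 and HFD3, and its log2 fold change of -0.24 ± 0.46 became 0.03 without ND3 and 0.06 without HFD3. Transcripts of sperm cells were looked at beside it in a list of 9 markers (Prm1, Prm2, Tnp1, Tnp2, Odf1, Akap4, Ldhc, Smcp and Gapdhs). They summed to 2.70, 11.8 and 9.10 CPM on ND against 7.70, 3.85 and 1.38 CPM on HFD. ND2 had the highest marker sum and the lowest Cox6b2 of the ND libraries, whereas HFD3 was lowest in both among the HFD libraries. The part of sperm cells in the Cox6b2 counts was not tested. Of the 4 markers tested 0 were called by edgeR, 0 had an unadjusted p under 0.05 and DESeq2 called 0.

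Cox6a2, the heart and skeletal muscle form, had 2, 2 and 1 counts on ND and 23, 10 and 41 counts on HFD. In CPM these were 0.108, 0.116 and 0.04998 on ND and 1.26, 0.602 and 2.36 on HFD. All ND libraries were under the floor of 3 counts and all HFD libraries above it, and HFD3 alone held 41 of the 74 HFD counts. The ratio of the summed counts was 15.8, with an exact 95% interval of 6.47 to 50.1 for counting error only. The interval shows how imprecise the ratio is. It leaves out the spread between libraries and is no test, since Cox6a2 was chosen on this contrast. The fitted log2 fold change was 3.87 ± 0.70, which depends on the prior count edgeR adds to such low values. It was 3.26 without HFD3 and 4.23 without HFD2. Without ND1, ND2, ND3 or HFD1 the gene did not pass the threshold of edgeR's quasi-likelihood test.

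Cox6a2 does not stand alone in the genome. It lies on the minus strand inside the span of Itgad (chr7:128154376-128223816, plus strand), which encodes the integrin alpha D chain of macrophages and other leukocytes. The genes point tail to tail, their last exons share 70 bases of the 680 exonic bases of Cox6a2, and the rest of Cox6a2 lies in an intron of a longer Itgad transcript. Itgad had 6, 4 and 9 counts on ND and 88, 65 and 171 counts on HFD, and its ratio was 18.2, with an interval of 11.5 to 30.6. Both genes were lowest in HFD2 and highest in HFD3 among the HFD libraries.

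Per 100 Itgad counts there were 33.3, 50 and 11.1 Cox6a2 counts on ND and 26.1, 15.4 and 24.0 on HFD. The ND ratios rest on 1 or 2 Cox6a2 counts each, under the floor of 3, so the overlap of the diets in this measure carries no information. Itgad itself rose with a log2 fold change of 4.17 ± 0.50 (adjusted p = 0.00642, edgeR's quasi-likelihood test). The library kit named in the labels does not state a strand-marking version and the strand setting of the counting is not given in the sources used here. If reads were counted without strand, those of Cox6a2 and Itgad in the shared bases and in the intron cannot be told apart.

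Other minus-strand rows inside Itgad were set beside Cox6a2. Per kilobase of exon and summed over 3 libraries, Cox6a2 had 7.35 counts on ND and 109 on HFD, and Itgad had 4.21 and 71.8. Gm44850 had 6.77 and 12.8, and 4931431B13Rik had 4.18 and 2.78. Gm39091 was listed at 0 counts in all libraries. All exons of 4931431B13Rik and 1 of Gm39091 overlap exons of Itgad, where reads counted without strand could be dropped as ambiguous. The rows of 4931431B13Rik and Gm39091 are therefore no clean background. The exons of Gm44850 overlap no exon of Itgad and lie in the same Itgad intron as most of Cox6a2. The source of the Cox6a2 counts was not tested.

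**Figure D2:**
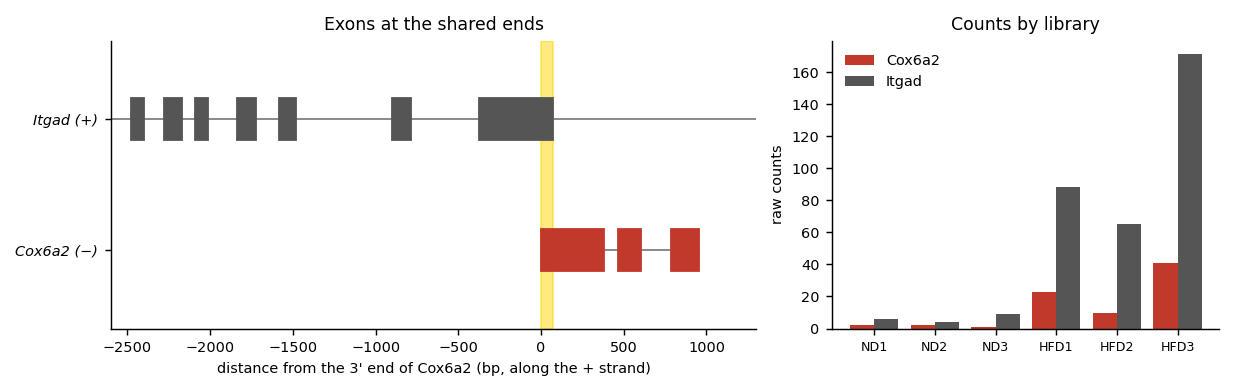
Left, exons (boxes) of Itgad and Cox6a2 around their shared ends, with the distance in base pairs from the 3′ end of Cox6a2 along the plus strand on the x axis and the 70 shared exonic bases shaded. Right, raw counts of both genes per library (y axis, linear from 0), which are 9 or lower in the 3 ND libraries and rise and fall together in the HFD libraries, with HFD2 lowest and HFD3 highest.

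Markers of skeletal muscle were checked beside Cox6a2. Ckm, the creatine kinase of muscle, and Myh4, a fast myosin, had 0 counts in all 6 libraries, and the 12 markers together summed to 25.4 to 69.3 CPM on ND against 10.7 to 14.3 CPM on HFD. That order rests on Acta1, since without it the other 11 summed to 3.29 to 5.35 CPM on ND against 7.49 to 8.61 CPM on HFD. Most of that HFD sum came from Pvalb, a calcium-binding protein, with 4.48, 5.60 and 4.15 CPM in HFD1, HFD2 and HFD3. Pvalb had 4, 1 and 10 counts on ND against 82, 93 and 72 counts on HFD. The sum without both genes was not computed, so no order of the diets is read for the remaining markers. Of the 5 muscle markers tested, 1 was called lower (Acta1, skeletal muscle actin, -3.21) and 1 higher (Pvalb, 4.13). At an unadjusted p under 0.05 the counts were 1 lower and 2 higher. The 6 heart markers summed to 0.348 to 4.45 CPM, and the 1 tested was not called. The highest sum was that of ND3, where Tnnt2 had 71 counts against 0 or 1 in the other libraries. Without Tnnt2 the sums ran from 0.348 to 0.918 CPM.

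Macrophage markers were set beside Cox6a2 as well. Of 15 tested, 10 were called higher and 0 lower, beside 9.85% of all genes called higher. Among the 10 were Cd68 (log2 fold change 3.72) and Adgre1 (2.91). Cd163 (-0.05), Mertk (-0.02) and Aif1 (0.23) were not called, and Cd163 was highest in HFD2 and lowest in HFD3 among the HFD libraries. The 15 markers summed to 2025 to 2125 CPM on ND and 5393, 4206 and 9100 CPM in HFD1, HFD2 and HFD3. In this sum the order of the HFD libraries is that of Cox6a2 and of Itgad. The part of macrophages in the Cox6a2 counts was not tested. Markers of plasmacytoid dendritic cells, of which edgeR and DESeq2 called 0 of 3 and 1 was lower at an unadjusted p under 0.05, summed to 4.47 to 6.15 CPM on ND against 2.13 to 4.70 CPM on HFD.

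The balance within each isoform pair was then expressed per library as the share of the restricted form in the summed FPKM of the pair. Cox7a1 made up 3.62, 4.43 and 4.21% of Cox7a1 plus Cox7a2 in the ND libraries against 8.21, 7.56 and 7.33% in the HFD libraries, that is, 4.09% ± 0.418 against 7.70% ± 0.456 (SD, n = 3). The shares of the diets did not overlap. For the share in raw counts, 95% intervals for counting error were computed per library. These intervals ran from 1.56 to 3.18% over the ND libraries and from 3.44 to 5.87% over the HFD libraries. Within a diet the share of each library lay inside the intervals of the others, so the small spread is not read as stability. The difference of 3.61 percentage points stayed between 3.36 and 3.80 when any 1 library was left out. Because both genes of the pair were chosen on this contrast, the difference has no test. On raw counts, which are not per length, it was 2.16 points.

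Cox6a2 made up 0.0236, 0.0192 and 0.0102% of its pair on ND and 0.359, 0.136 and 0.718% on HFD, still under 1% in every library. Cox6b2 made up 0.795, 0.615 and 1.33% on ND and 0.857, 1.29 and 0.452% on HFD, and the diets overlapped. Pairs with a partner outside the 10 genes were added for comparison. Cox8b, the muscle and brown fat partner of Cox8a, took 2.75, 5.09 and 4.40% on ND and 2.49, 3.25 and 1.51% on HFD. Cox4i2, the lung partner of Cox4i1, took 2.73, 1.74 and 1.40% on ND and 1.77, 1.34 and 1.26% on HFD. In both pairs the diets overlapped and the mean share was lower on HFD, whereas the mean share of Cox7a1, which has brown fat in common with Cox8b, was higher. Cox7b2, the testis partner of Cox7b, had 0 counts in all libraries, which allows up to 3 counts, or 0.150 to 0.181 CPM, in a library.

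**Figure D3:**
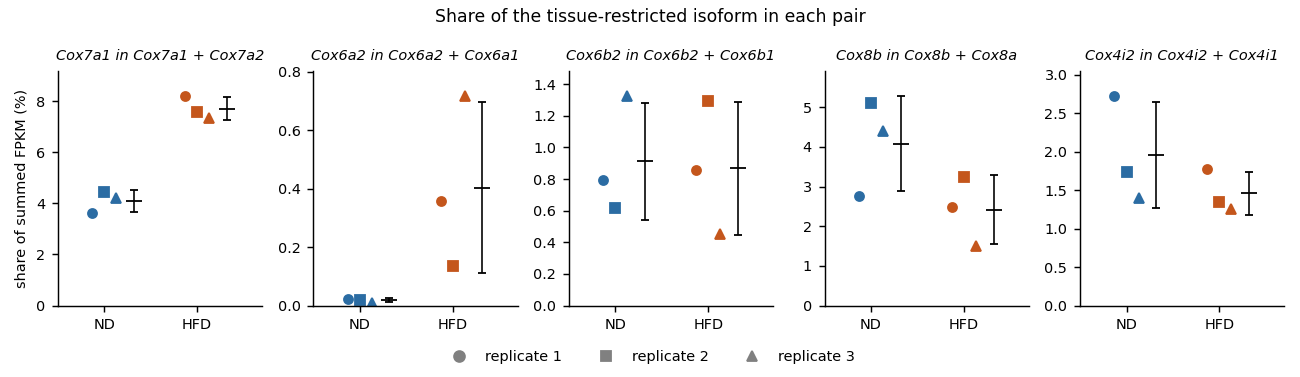
Share of the tissue-restricted form in the summed FPKM of its pair (y axis, percent, linear from 0, scaled per pair), with ND in blue and HFD in orange, shapes for replicates 1 to 3 and bars for the mean ± SD of 3 libraries. The Cox7a1 share lies between 3.62 and 4.43% on ND and between 7.33 and 8.21% on HFD, and the shares of Cox6b2, Cox8b and Cox4i2 overlap between the diets.

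Brown fat markers were checked beside Cox7a1. The 9 markers summed to 26.6, 47.6 and 21.9 CPM on ND against 63.6, 60.5 and 50.7 CPM on HFD, so the diets did not overlap. Of the 5 tested, 1 was called higher, Otop1 (4.82), a proton channel, and 0 lower, beside 9.85% of all genes called higher. Cidea (0.54), Dio2 (0.31) and Fabp3 (2.27) were not called, and Cidea and Dio2 overlapped between the diets. At an unadjusted p under 0.05 the counts were 2 higher and 0 lower, and DESeq2 also called 2 higher and 0 lower. Ucp1, the uncoupling protein that defines brown fat, had 0 counts in every ND library but 3, 9 and 1 counts on HFD, and Zic1 had 0 counts throughout. Most of the sum came from Kcnk3, which had 0.54 as its log2 fold change and did not pass. Without Kcnk3 the other 8 summed to 3.62, 6.90 and 3.55 CPM on ND against 19.7, 13.3 and 22.9 CPM on HFD. The diets still did not overlap, and Otop1 alone had 10.4, 6.20 and 13.2 CPM on HFD. In Otop1 the order of the HFD libraries was that of the macrophage marker sum, and the source of its counts was not tested. The part of brown adipocytes in the Cox7a1 values was not tested.

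The rest of complex IV was examined through 12 further subunits. The 10 isoform genes were picked with complex IV values in view, so the calls of these 12 are no independent support for a direction. Of these, 10 had enough counts, all 10 had negative log2 fold changes, 5 were called lower and 0 higher (0 higher also at an unadjusted p under 0.05), beside 6.04% of all genes called lower. The 5 were mt-Co3 (-1.44, adjusted p = 0.00689), mt-Co2 (-1.23, 0.0101), Ndufa4 (-0.71, 0.0370), Cox6c (-0.65, 0.0319) and Cox5b (-0.54, 0.0331), all by edgeR's quasi-likelihood test. Cox8b (-1.21), mt-Co1 (-0.93), Cox4i2 (-0.90), Cox7c (-0.52) and Cox4i1 (-0.49) did not pass, with adjusted p from 0.0698 to 0.126 by the same edgeR test, and Cox8c and Cox7b2, both testis forms, had too few counts. The log2 fold changes of the 10 tested and of the 10 isoform genes did not overlap, since the highest among the former was -0.49 (Cox4i1) and the lowest among the latter was -0.48 (Cox5a). Since the isoform genes were picked on these values, that gap is not a result.

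The count of 5 rests on single libraries. It was 2 without ND1, ND2 or ND3, 1 without HFD1 and 8 without HFD2, and DESeq2 gave 9. Some of these genes also share sequence. All 50-base windows of mt-Co2 and 99.9% of those of mt-Co3 recur in annotated nuclear pseudogenes, against 51.1% of those of mt-Co1, and mt-Co1 stood at 7235 to 19029 CPM while mt-Co2 stood at 23.6 to 72.1 and mt-Co3 at 9.67 to 36.7 CPM. The values of mt-Co2 and mt-Co3 are uncertain for that reason. Cox6c shares 250 exonic bases with Vps13b and Cox4i1 shares 154 with Emc8, each on the other strand.

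**Figure D4:**
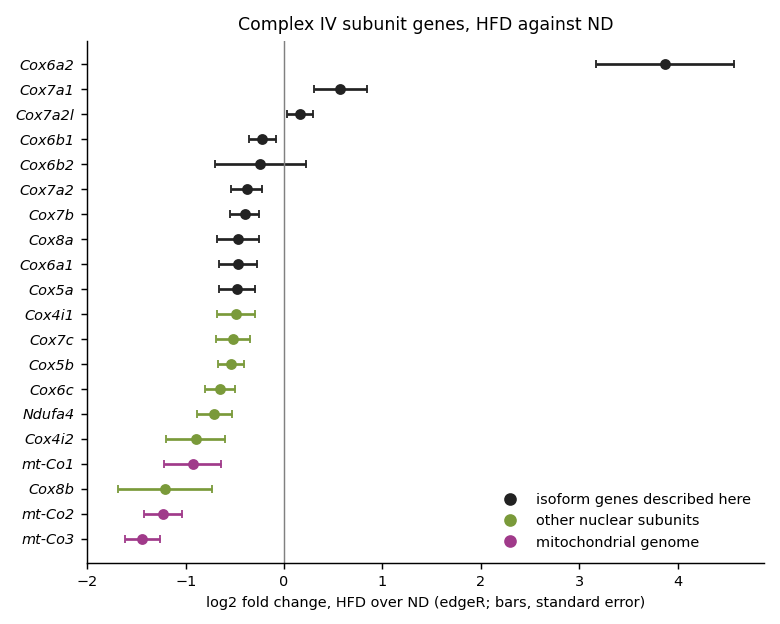
Log2 fold change of HFD over ND (x axis) for the 20 complex IV genes with enough counts, as points with standard errors from edgeR, with the isoform genes in black, the other nuclear subunits in green and those of the mitochondrial genome in purple. Cox6a2 stands at 3.87, Cox7a1 and Cox7a2l are the other genes above 0, and mt-Co3 is lowest at -1.44.

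Of 5 electron carriers and proteins beside complex IV that were tested, 0 passed edgeR's quasi-likelihood test in either direction, 1 was lower at an unadjusted p under 0.05 (Ndufa4l2), and DESeq2 called 1 lower. Cycs, cytochrome c itself, had a log2 fold change of -0.30, Ndufa4l2, the relative of Ndufa4, had -0.55, and the assembly and hypoxia factors Higd1a, Higd2a and Higd1b had -0.11, -0.03 and 0.22. Cyct, the testis form of cytochrome c, had 0 to 2 counts. Isoform sets outside complex IV were looked at for the same split between common and restricted forms. Of 6 tested, 1 was called lower, Atp5g3 (-0.79, adjusted p = 0.0260, edgeR's quasi-likelihood test), a gene for the c ring of ATP synthase, while Atp5g1 and Atp5g2, which encode the same mature protein, had 0.01 and -0.27. The ADP/ATP carriers Slc25a4, the muscle form, and Slc25a5 had -0.43 and -0.36. Ckmt1 had 1.07 ± 0.93 on 0 to 22 counts, and Ckmt2, the muscle form of mitochondrial creatine kinase, and Slc25a31, the testis carrier, were too low to test.

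The other complexes of the chain had 65 nuclear subunits on the lists, all tested, of which edgeR called 25 lower and 0 higher (DESeq2 42 and 0, and 0 were higher at an unadjusted p under 0.05), beside the 6.04% of all genes called lower. Complex I, which takes electrons from NADH, had 16 of 37 lower, led by Ndufa12 (-0.97) and Ndufs4 (-0.87), with a median of -0.55. Complex II, succinate dehydrogenase, had 2 of 4 lower (Sdha, -0.81, and Sdhb, -0.71). Complex III, which hands electrons to cytochrome c, had 4 of 9 lower, led by Uqcrc2 (-1.02), with a median of -0.56. Complex V, the ATP synthase, had 3 of 15 lower, led by Atp5c1 (-1.02), with a median of -0.40. Of the 65 subunits 1 had a positive log2 fold change (Atp5g1). The count of 25 too depends on single libraries, since it was 0 without HFD1, 3 without ND1 or ND2, 15 without ND3 and 40 without HFD2.

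**Figure D5:**
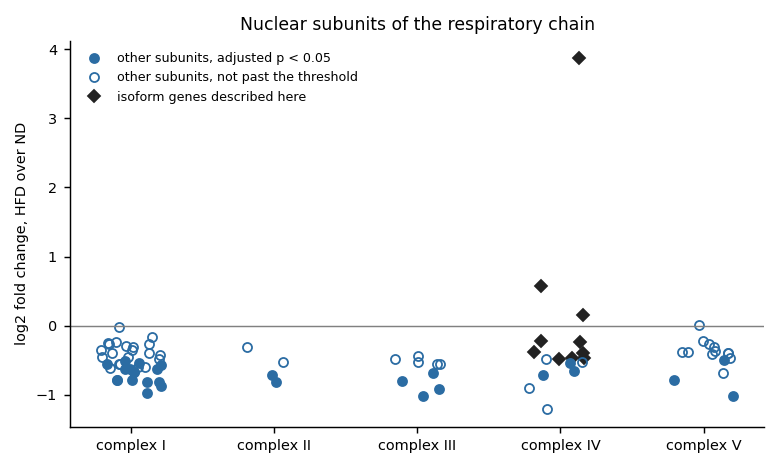
Log2 fold change of HFD over ND (y axis) for each nuclear subunit of complexes I to V (x axis, points spread sideways at random), filled where the adjusted p from edgeR was under 0.05 and open otherwise, with the 10 isoform genes as black diamonds and no call drawn for them. All but 1 of the 65 subunits of complexes I, II, III and V lie below 0. The isoform genes, chosen on this contrast, have 3 values above it.

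Cell type markers were checked beside the lower values of the chain. Of 15 adipocyte markers tested, 3 were called lower and 0 higher, namely Cfd (-3.42), Retn (-2.05) and Slc2a4 (-1.42). The sum of the 15 was lower in every HFD library than in every ND library, but this rests on Cfd. Without it the other 14 summed to 43214, 49308 and 37147 CPM on ND against 32183, 43782 and 23236 CPM on HFD, and the diets overlapped. Cidec (-0.08), Plin4 (0.03) and Acsl1 (0.14) had log2 fold changes near 0, but 13 of the 15 were negative, with a median of -0.52. At an unadjusted p under 0.05, 6 adipocyte markers were lower and 0 higher, and DESeq2 also called 6 lower and 0 higher. Smooth muscle and pericyte markers had 2 of 9 lower (Cnn1, -3.16, and Rgs5, -1.16) and summed to 833 to 1032 CPM on ND against 365 to 626 CPM on HFD, with overlap between the diets once Rgs5 is left out (381 to 559 against 230 to 395 CPM). Endothelial markers had 0 of 8 called by edgeR (2 lower at an unadjusted p under 0.05, 1 lower by DESeq2), with 1320 to 1617 CPM on ND against 740 to 1503 CPM on HFD. Of the markers of epithelium and cilia 0 of 3 tested were called by edgeR, 1 was lower at an unadjusted p under 0.05, and DESeq2 called 0. The part of these cell types in the lower complex IV values was not tested.

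Of 10 listed genes that regulate the transcription of mitochondrial proteins, 2 were called lower and 0 higher by edgeR, and DESeq2 called 3 lower and 0 higher. Ppargc1a, the coactivator of mitochondrial biogenesis, had 7.99, 8.93 and 10.2 CPM on ND against 1.803, 3.01 and 1.21 CPM on HFD, and fell by 2.17 on the log2 scale (adjusted p = 0.0114, edgeR's quasi-likelihood test). Tfam, which packages and transcribes mitochondrial DNA, had 35.2, 37.1 and 36.3 CPM on ND against 24.6, 24.0 and 27.6 CPM on HFD and fell by 0.51 (adjusted p = 0.0249, same edgeR test). Neither gene overlapped between the diets. Nrf1 (0.22) and Polrmt (0.17), the mitochondrial RNA polymerase, did not pass.

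Promoter sequence was searched for the motifs of such regulators in the RefSeq windows from 250 bases before to 50 bases after each gene start (GRCm38.p6), on both strands. The windows held 9 of the 10 isoform genes. Cox6a2 had no window and was not searched. The motif of NRF1, a run of 10 letters, was found in 1 of the 9, Cox6a1, and in 4.603% of all 32851 windows. The core of the ETS factors such as GABPA, CCGGAAG, was found in Cox6a1, Cox6b1 and Cox8a, and in 8.86% of all windows. YY1, AANATGGC, was found in Cox7b, and in 6.05% of all windows. No window of the 9 held the ERR motif TNAAGGTCA (1.28% of all windows), the muscle E-box CAGCTG (16.3%) or the MEF2 motif (3.69%), so the window of Cox7a1 held none of the 6. Among 5 other nuclear subunits with a window, Cox8b held the E-box. Cox5b matched the loose MEF2 pattern with CTACTTTTAG, which was not checked against a stricter form of the motif.

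The promoters of Cox6a1 (chr5:115348959-115349208, minus strand) and Cox8a (chr19:7217615-7217676, minus strand), the genes with the highest levels, are shown 5′ to 3′ with the matches in capitals. In Cox6a1 these are a pair of NRF1 matches, starting at -162 and -117 from the RefSeq start, and 1 ETS match on the other strand at -16. In Cox8a the capitals are an ETS match on the other strand that starts at -5, and a further one begins at 33 after the start. A match is a run of letters and was not measured as a bound site.
Cox6a1: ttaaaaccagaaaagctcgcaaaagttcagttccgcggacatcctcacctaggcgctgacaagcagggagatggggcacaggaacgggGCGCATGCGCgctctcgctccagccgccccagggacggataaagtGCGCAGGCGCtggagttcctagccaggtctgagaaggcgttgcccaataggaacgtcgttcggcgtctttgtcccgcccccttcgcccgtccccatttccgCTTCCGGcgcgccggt
Cox8a: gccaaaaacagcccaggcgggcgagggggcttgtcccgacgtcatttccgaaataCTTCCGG

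Finally, genes whose log2 CPM over the 6 libraries resembled a restricted isoform most were listed by Pearson's r among protein-coding genes, as a description with no p, since all share the same 2 diet groups. For Cox6a2 these were Coro1c (r = 0.9994), Sh3kbp1 (0.9993), C1qc (0.9986), Plp2 (0.9986) and Htra2 (0.9984). As many as 1175 genes had r above 0.95 with Cox6a2, and its ND values rest on 1 to 2 counts per library, so the rank within this group says little. For Cox7a1 the list was Fam83d (0.9943), Bcar3 (0.9866), Ltc4s (0.9857), Angptl4 (0.9802), a secreted inhibitor of lipoprotein lipase, and Hist1h4c (0.9783), and 29 genes passed 0.95. For Cox6b2 it was Ptprk (0.9942), Ccdc159 (0.9849), Actr8 (0.9789), Ercc5 (0.9786) and Ripk4 (0.9774), and 40 genes passed 0.95.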

How the data were processed

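RNA-seq of epididymal fat from 3 ND and 3 HFD samples was analysed, grouped by the diet label. The authors deposited raw counts per gene and, for the same 54532 genes, FPKM values, which equal the count divided by a gene length and a library factor (within 1% for all 11492 genes with over 50 counts in every library). The submitters' processing notes name fastp, HISAT2 2.0.5, featureCounts 1.5.0-p3, DESeq2 1.20.0 and the build hg38, whereas the paper names TopHat, Cufflinks and GRCm38. The identifiers are mouse, and 54495 were found in GENCODE M21 (GRCm38), the source of names, coordinates and transcripts here.

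Counts were tested with edgeR 4.0.16 (R 4.3.3) by glmQLFit with robust=TRUE, TMM, filterByExpr, diet as the only factor and Benjamini-Hochberg adjustment at 0.05. Standard errors of fold changes come from the F statistic. The scripts were tested on simulated data. With 3 against 3 the smallest p of an exact permutation test is 0.1, and no such test was run. Alternatives were DESeq2 1.42.0, its size factors within edgeR, scaling by library size alone, dropping the filter, requiring 10 counts in 3 libraries, a block for the replicate number, leaving out any 1 library, and limma 3.58.1 on log2(FPKM + 1), on log2(FPKM + 0.1) (genes reaching an FPKM of 0.5 in 3 libraries) and on log2(FPKM + 1) without a filter. Intervals and floors cover counting error only.

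The isoform genes and all lists were chosen with earlier results of these data known. Named are all 10 genes, the other complex IV subunits, partners and isoform sets, up to 4 called genes with the largest change per other list, overlapping genes, and the 5 genes most alike. Kcnk3, Zic1, Cidea, Dio2, Fabp3, Ckm, Myh4, Ucp1, Cidec, Plin4, Acsl1, Nrf1, Polrmt, Cd163, Mertk, Aif1 and Tnnt2 were named after the values were seen. Marker sums without their most changed gene were also computed after that.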

Additional observations from a re-analysis of the deposited data

How the results depend on the processing

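Under DESeq2 the genes called lower were 1596 in place of 952, the other complex IV subunits called lower 9 in place of 5, and those of complexes I, II, III and V 42 in place of 25. With limma on log2(FPKM + 1) and no filter, 394 genes were higher and 255 lower, 2 complex IV subunits and 6 of the other complexes were lower, and Cox6a2 did not pass, so 0 isoform genes were called higher. Leaving out 1 library at a time gave 337 to 2368 genes higher and 94 to 1572 lower, 1 to 8 complex IV subunits lower, 0 to 40 subunits of the other complexes lower, 0 to 1 isoform genes higher and 0 to 1 lower (Cox8a, without HFD2). The lowest counts lie without HFD1 or ND1 and the highest without HFD2, and the cause was not tested. The Cox7a1 share differed by 2.16 percentage points on raw counts in place of 3.61. The fitted log2 fold change of Cox6a2 was 1.35 to 4.23 over the 15 alternatives, lowest with a pseudocount of 1 FPKM, which exceeds its level on ND. Cox6b2 ranged from -0.73 to 0.06, and the other 8 isoform genes kept their sign in all 15.

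Same-numbered libraries of the diets did not deviate together (correlations of -0.0858, -0.0556 and -0.00532). These values show no sign of pairing by number, but with 3 libraries per diet they cannot exclude it. With the replicate block, 1183 genes were higher and 703 lower, 4 complex IV subunits and 29 of the other complexes were lower, and 1 isoform gene was higher. The depth limits Cox6a2 on ND, where 1 to 2 counts per library leave a wide ratio, and Cox7b2, Cox8c and Cyct, which were too low to test.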
